A study of Rattus norvegicus with 3 samples.

Results

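The nuclear genes that encode aminoacyl-tRNA synthetases were followed in the H3K4me2 peak lists of 2 rat liver libraries. Of these, 1 came from the olanzapine-treated group and 1 from the clozapine-treated group. The 36 genes comprised 18 for cytosolic enzymes, 16 for mitochondrial enzymes, and Gars and Kars, whose products serve both compartments. A peak belonged to a gene when the gene field of its entry, split at semicolons, equalled the symbol with or without a final 1. This rule took 32 of 7128 peaks in the olanzapine list and 48 of 19449 peaks in the clozapine list. Each list named 25 of the 36 genes.

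Female Sprague-Dawley rats had received olanzapine at 3 mg/kg, clozapine at 20 mg/kg or a drug-free sweet cookie dough vehicle, each by mouth 2 times a day for 9 weeks, with 12 animals per group. Olanzapine was eaten in a pellet, whereas clozapine was given by mouth with a syringe and followed by a drug-free pellet, because the rats came to avoid the drugged one. All animals had been fasted when the livers were taken. Each group is represented by 1 library, so no difference between the drugs could be tested. The sources used here do not say whether a library holds liver of 1 rat or of several. The drug, its dose, the route and the animals sampled cannot be told apart. The vehicle library was not analysed here, and no value below is relative to untreated liver.

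Aminoacyl-tRNA synthetases join each amino acid to its matching transfer RNA and thereby supply ribosomes with charged tRNA. The cytosolic enzymes serve cytoplasmic ribosomes, and several of them are held together in a multisynthetase complex. The mitochondrial enzymes, most of them encoded by separate genes whose symbols end in 2, are imported into mitochondria and serve the ribosomes that translate mitochondrial DNA. Dimethylation of histone H3 at lysine 4 (H3K4me2) marks nucleosomes around active promoters and enhancers. Many cytosolic synthetase genes are induced by the transcription factor ATF4 when amino acids are short or the endoplasmic reticulum is stressed.

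Promoter sequences were taken from RefSeq on assembly GRCr8 and matched 33 of the 36 genes (all but Dars, Gars and Rars). Each runs from 250 bases before to 50 bases after the annotated start, 5′ to 3′ on the gene's own strand. The 4 shown are those whose exonic olanzapine peak reached to within 1000 bp of a gene start that could be located. They lie at chr2:62114753-62115052 on the minus strand for Tars (threonyl-tRNA synthetase), chr2:198769316-198769615 on the minus strand for Sars (seryl-tRNA synthetase), chr2:185999064-185999363 on the minus strand for Tars2 and chr2:189150111-189150410 on the plus strand for Wars2 (the mitochondrial threonyl and tryptophanyl enzymes). Capitals mark matches, on either strand, to the C/EBP-ATF4 composite element TGATGNAA, the NRF1 motif (GCGCA, any base, GCGC) or the E-box CACGTG.
Tars: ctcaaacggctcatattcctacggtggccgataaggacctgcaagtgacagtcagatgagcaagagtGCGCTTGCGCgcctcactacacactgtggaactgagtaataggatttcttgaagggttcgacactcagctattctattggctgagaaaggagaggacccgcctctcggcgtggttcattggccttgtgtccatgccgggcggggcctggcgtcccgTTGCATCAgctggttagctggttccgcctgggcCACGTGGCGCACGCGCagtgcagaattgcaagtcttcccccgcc
Sars: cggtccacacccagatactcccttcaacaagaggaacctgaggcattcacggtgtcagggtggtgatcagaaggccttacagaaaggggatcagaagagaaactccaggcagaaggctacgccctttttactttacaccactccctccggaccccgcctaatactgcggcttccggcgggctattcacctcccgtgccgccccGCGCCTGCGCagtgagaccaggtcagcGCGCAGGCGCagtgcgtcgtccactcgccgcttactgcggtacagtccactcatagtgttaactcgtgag
Tars2: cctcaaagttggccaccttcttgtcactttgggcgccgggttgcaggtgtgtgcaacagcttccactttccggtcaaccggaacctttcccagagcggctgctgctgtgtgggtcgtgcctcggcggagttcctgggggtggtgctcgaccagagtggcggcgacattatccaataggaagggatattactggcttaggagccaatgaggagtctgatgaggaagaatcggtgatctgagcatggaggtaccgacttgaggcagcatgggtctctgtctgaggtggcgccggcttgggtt
Wars2: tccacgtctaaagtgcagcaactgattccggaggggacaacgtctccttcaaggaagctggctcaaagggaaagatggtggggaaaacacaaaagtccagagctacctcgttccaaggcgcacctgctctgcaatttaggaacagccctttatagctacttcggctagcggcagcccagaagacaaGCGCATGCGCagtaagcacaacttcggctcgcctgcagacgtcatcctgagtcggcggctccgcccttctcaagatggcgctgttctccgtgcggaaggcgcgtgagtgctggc

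Tars held all 3 motifs, and its E-box adjoined an NRF1 match without sharing a base, as was also the case in Farsb. Sars held a pair of NRF1 matches, Wars2 held 1 and Tars2 held no match to these letters in this window. Over all members the NRF1 motif was found in 6 of 33 promoters (Farsb, Sars, Tars, Iars2, Pars2 and Wars2), 3 cytosolic and 3 mitochondrial, beside 7.33% of 15165 rat promoters of the same length. The E-box was found in 6 of 33, of which Aars, Farsb, Iars, Tars and Vars are cytosolic and Ears2 is mitochondrial, beside 7.98% of all promoters. A match describes letters and is not evidence of binding.

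The composite element was found in promoters of cytosolic enzymes alone. It was present in 7 of 16 cytosolic promoters (Aars, Cars, Iars, Mars, Nars, Tars and Yars) and in 0 of 16 mitochondrial promoters, beside 2.95% of all 15165 promoters. The 30-base windows below are written on the strand on which the element reads TGATGNAA, and capitals mark the element. In the 6 genes shown, the site began between 27 bases before and 38 bases after the annotated start.
Cars: tttccagaatcTGATGCAAccgcggcgccg
Iars: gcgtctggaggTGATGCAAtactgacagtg
Mars: ggagcccacgcTGATGCAAccggaacgggc
Nars: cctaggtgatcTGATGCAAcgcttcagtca
Tars: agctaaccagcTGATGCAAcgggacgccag
Yars: cggagctacgagctcagcTGATGCAAcctg

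Of these 7 genes, Aars, Mars, Tars and Yars had an exonic or 5′ UTR olanzapine peak, and Nars had an exonic clozapine peak. Cars had an intronic olanzapine peak, and Iars was named in the clozapine list alone, by intergenic peaks. Of the 33 members with a promoter sequence, 18 had an upstream, 5′ UTR, exonic or splicing olanzapine peak, 4 with the element and 14 without. For clozapine 5 had one, 1 with the element and 4 without. Among all protein-coding genes 22.7% and 14.4% had such a peak. A link between the element and the peaks was not tested. The median promoter held 20.0 CpG dinucleotides in the members and 16.0 in all promoters, at a median GC content of 58.0% in each.

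Each entry of the authors' lists gives the peak's position on Rnor_6.0, its length, a fold enrichment (a ratio over a background the sources used here do not name), its p and q on a −log10 scale, and a class relative to genes. The olanzapine list covered 5.18 Mb in peaks of at least 196 bp. The clozapine list covered 6.03 Mb in peaks of at least 170 bp, and 41.6% of its peaks had exactly that length. Liver identity was visible in both libraries, with 6 of 8 hepatocyte markers carrying a peak in the gene for olanzapine and 8 of 8 for clozapine. Markers of other cell types (endothelial, stellate, macrophage, biliary and blood cell lists) carried none for olanzapine, 0 of 30, against 14 of 30 for clozapine. The clozapine counts were 4 of 6 endothelial, 3 of 6 stellate, 3 of 6 biliary, 4 of 6 blood cell and 0 of 6 macrophage markers. S100a9 was the highest at a fold enrichment of 44.9. Of all protein-coding genes, 22.7% had a peak in the gene for olanzapine and 14.4% for clozapine. The part of these cell types in the synthetase results was not tested.

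Peaks of the upstream, 5′ UTR, exonic or splicing class were counted as peaks in the gene. By this count 19 of 36 synthetase genes (52.8%) had a peak in the olanzapine library, where 22.7% of 18539 protein-coding genes did. In the clozapine library 6 of 36 (16.7%) had one, near the 14.4% of all protein-coding genes. The counts lay furthest apart for mitochondrial synthetase genes, 9 of 16 (56.2%) in the olanzapine library and 0 of 16 in the clozapine library. Cytosolic synthetase genes were 8 of 18 (44.4%) in the olanzapine library and 4 of 18 (22.2%) in the clozapine library. Gars and Kars had a peak in both. These classes leave out intronic peaks. By any class but intergenic, mitochondrial genes counted 10 of 16 (62.5%) for olanzapine and 5 of 16 (31.2%) for clozapine. Cytosolic genes then counted 11 of 18 (61.1%) and 7 of 18 (38.9%). All protein-coding genes stood at 26.8% and 28.2% by that count. The study gives similar totals of clean reads for the olanzapine and clozapine libraries, but far fewer reads placed on the genome for clozapine. The libraries thus differed in the share of reads placed more than in sequencing depth. This bears on every count set between the lists. Its part in these counts cannot be told apart from that of the drug. In bulk liver a mark carried by few cells and a weak mark carried by many cannot be told apart.

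**Figure D1:**
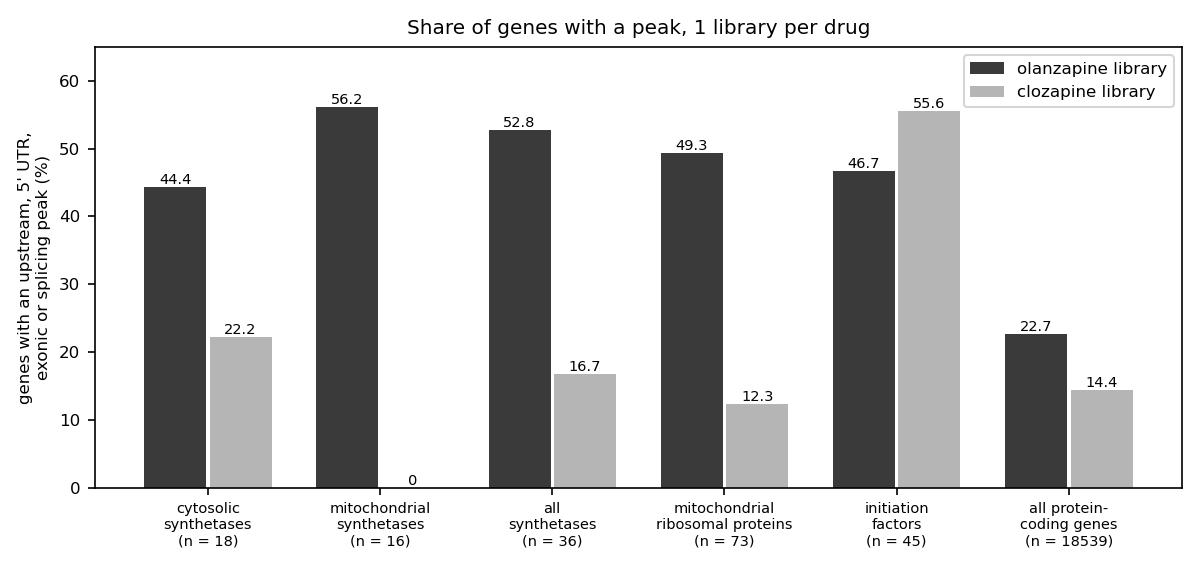
Share of genes, in percent, with an upstream, 5′ UTR, exonic or splicing peak in the olanzapine library (dark bars) and the clozapine library (light bars), for synthetase genes by compartment, 2 other groups of translation genes and all protein-coding genes; each bar is 1 library and has no error. Mitochondrial synthetases stood at 56.2% for olanzapine and 0 for clozapine, and all protein-coding genes at 22.7% and 14.4%.

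The 19 genes of the olanzapine library included class I and class II enzymes, the structurally unrelated catalytic folds of the family, at 8 of 18 and 10 of 17, and the bifunctional glutamyl-prolyl enzyme Eprs, which carries both. Of the 8 genes whose products sit in the multisynthetase complex, Eprs, Kars, Mars and Qars were among them. The shares were 44.4%, 58.8% and 50.0%, beside 22.7% of all protein-coding genes. In the clozapine library the counts were 1 of 18 for class I, 5 of 17 for class II and 1 of 8 for the complex, beside 14.4%. By any class but intergenic they were 6 of 18, 8 of 17 and 4 of 8, beside 28.2%. These groups are small, and differences between them were not tested. Set by amino acid, 16 mitochondrial enzymes have a cytosolic counterpart. Eprs is the counterpart of both Ears2 and Pars2. Both enzymes carried an olanzapine peak in the gene for 5 pairs (Eprs with Ears2, Farsb with Fars2, Sars with Sars2, Tars with Tars2 and Yars with Yars2). The mitochondrial enzyme alone did so for 4, the cytosolic one alone for 3 and neither for 4. In the clozapine library neither did so for 12, and the cytosolic enzyme alone did for the other 4. Of all single protein-coding genes, 22.7% had such a peak for olanzapine and 14.4% for clozapine. No share of gene pairs over all genes was computed.

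**Figure D2:**
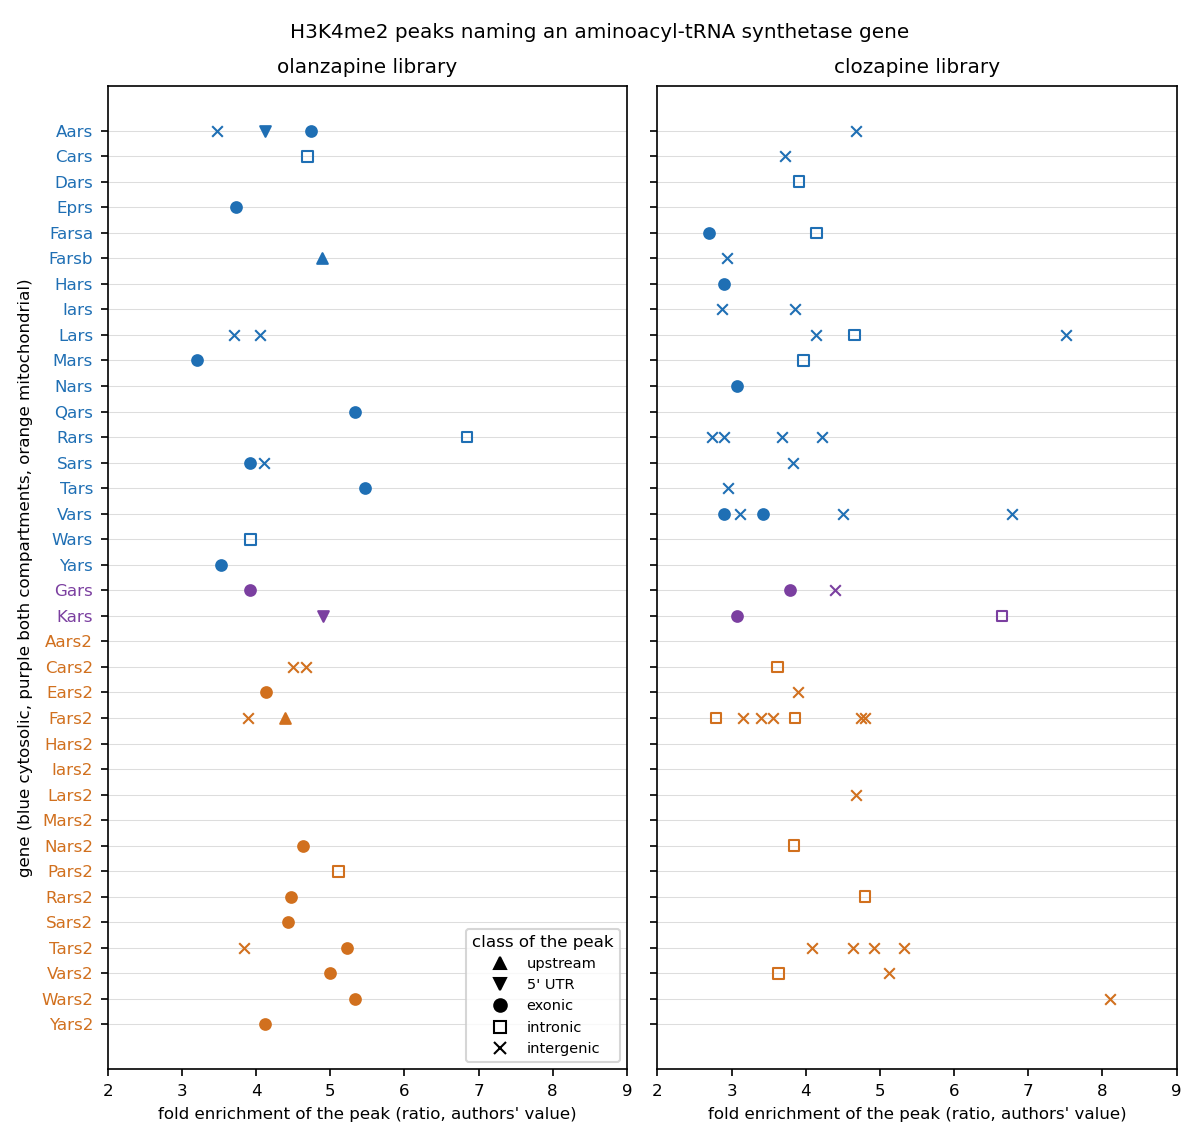
Fold enrichment (a ratio, the authors' value) of each peak naming a synthetase gene, in the olanzapine library (left) and the clozapine library (right). Rows are genes, cytosolic in blue, both compartments in purple and mitochondrial in orange, and symbols give the class of the peak. Filled symbols, which stand for peaks in the gene, mark 19 genes on the left and 6 on the right, where open squares (intronic) and crosses (intergenic) are the common ones.

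Among the cytosolic enzymes, Tars carried the strongest olanzapine peak in a gene by −log10 p. This exonic peak at chr2:61413769-61414066 spanned 298 bp, with a fold enrichment of 5.47 and a −log10 p of 9.38. It covered the start of Tars and reached 28 bp beyond it, so that it lay mostly on the transcribed side of the promoter printed above. In the clozapine library Tars was named by a single intergenic peak, 39567 bp before its start, with a fold enrichment of 2.95.

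Qars, the glutaminyl enzyme, had an exonic olanzapine peak at chr8:117298025-117298433 with a fold enrichment of 5.34 and a −log10 p of 7.47. The clozapine list did not name Qars. Sars carried the longest of the olanzapine peaks in a gene, 1495 bp at chr2:211234234-211235728. Its fold enrichment was lower, 3.92, with a −log10 p of 5.57, and it covered the gene start with 288 bp beyond it. A second olanzapine peak of Sars was intergenic, 30887 bp before the start, at a fold enrichment of 4.11. The clozapine peak of Sars was intergenic at 3.83, 11033 bp from the other end of the gene.

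Aars, the alanyl enzyme, was the gene named most often in the olanzapine list, with 3 peaks. An exonic peak at chr19:43212213-43213495 spanned 1283 bp at a fold enrichment of 4.74, a 5′ UTR peak at chr19:43214439-43215224 spanned 786 bp at 4.12, and an intergenic peak 44219 bp away had 3.48. These lie next to each other apart from the distant one, and Aars was the only synthetase gene with more than 1 olanzapine peak in the gene. The clozapine library had an intergenic Aars peak alone, 26477 bp from the gene, with a fold enrichment of 4.68. Farsb, the β subunit of the phenylalanyl enzyme, carried an upstream olanzapine peak of 407 bp, 402 bp before the gene, at a fold enrichment of 4.88. The other cytosolic olanzapine peaks in a gene, in Eprs, Mars and Yars, were exonic and had fold enrichments of 3.73, 3.21 and 3.53. The Mars peak had the lowest fold enrichment and the lowest −log10 p (4.06) of the 20 peaks in a synthetase gene.

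The intronic class held 4 olanzapine peaks of synthetase genes. Rars, the arginyl enzyme of the multisynthetase complex, had the highest fold enrichment of all 32, 6.85 with a −log10 p of 10.4, at percentile 98.5 of the list. This 240-bp peak at chr10:20657679-20657918 lay 156 bp inside one end of Rars, whose strand was not known here. Cars, the cysteinyl enzyme, had an intronic peak at chr1:216800889-216801431 with a fold enrichment of 4.69 and a −log10 p of 7.32, 213 bp inside its start. Those of Pars2 (prolyl, mitochondrial) and Wars (tryptophanyl) had fold enrichments of 5.11 and 3.92. Counting any class but intergenic therefore gave 23 of 36 genes for olanzapine, where 26.8% of all protein-coding genes did, against 14 of 36 for clozapine, where 28.2% did.

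The olanzapine peaks in the genes of 9 mitochondrial enzymes had fold enrichments between 4.12 in Yars2 and 5.34 in Wars2. These values stood at percentiles 39.6 and 87.5 of the olanzapine list. Wars2 carried a 643-bp exonic peak at chr2:201172364-201173006, 52 bp inside the start, with a −log10 p of 6.95. Tars2 carried the shortest olanzapine peak in a synthetase gene, 199 bp at chr2:197877937-197878135, 7 bp inside the start, with a fold enrichment of 5.22 and a −log10 p of 6.96. A second Tars2 peak was intergenic, 56850 bp before the start, at a fold enrichment of 3.84.

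Vars2 (valyl), Nars2 (asparaginyl), Rars2 (arginyl), Sars2 (seryl) and Ears2 (glutamyl) had exonic peaks with fold enrichments of 4.99, 4.63, 4.47, 4.44 and 4.14. Fars2, the phenylalanyl enzyme, had an upstream peak 388 bp before its start at 4.39 and an intergenic one, 129261 bp before its start, at 3.89. The Rars2 and Ears2 entries each named a neighbour as well, Orc3 (a subunit of the origin recognition complex) and Ubfd1, so those peaks are shared with the neighbour. In the GRCr8 gene table Rars2 and Orc3, Ears2 and Ubfd1, Fars2 and Lyrm4, Kars and Terf2ip, and Hars and Hars2 start within 1000 bp of each other on opposite strands. Such head-to-head neighbours were found for 4 of 16 mitochondrial and 1 of 16 cytosolic genes with a promoter sequence. For these genes a peak at the start cannot be assigned to 1 of the neighbours. Cars2, the mitochondrial cysteinyl enzyme, was named by intergenic peaks alone, 6506 and 4725 bp before its start, with fold enrichments of 4.50 and 4.67.

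Gars and Kars, which serve both compartments, were the only genes of the 36 with a peak in the gene in both libraries. The peaks were at different places. The share of all protein-coding genes with a peak in both was not computed, so 2 of 36 cannot be set against it. Gars, the glycyl enzyme, had a 676-bp exonic olanzapine peak at chr4:85235357-85236032, with a fold enrichment of 3.92 and a −log10 p of 5.30, against a 183-bp exonic clozapine peak at chr4:85249214-85249396, with 3.78 and 7.04. The olanzapine peak lay 235 bp and the clozapine peak 14092 bp from the same end of the gene. Kars, the lysyl enzyme, had a 298-bp 5′ UTR olanzapine peak at chr19:44230842-44231139, with a fold enrichment of 4.91 and a −log10 p of 7.61. In the clozapine library Kars had a 170-bp exonic peak at chr19:44219164-44219333, with 3.07 and 5.52, and a 173-bp intronic peak at chr19:44220344-44220516, with 6.64 and 13.6. The intronic peak was the strongest clozapine peak inside a synthetase gene and stood at percentile 97.6 of its list. A second Gars entry of the clozapine list was intergenic, 19385 bp from the gene, at a fold enrichment of 4.39.

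The other clozapine peaks in a synthetase gene were in Vars, Nars, Hars and Farsa, all cytosolic and all without any entry in the olanzapine list. Vars, the valyl enzyme, had a 1112-bp exonic peak at chr20:5004642-5005753, the longest of these, with a fold enrichment of 3.42 and a −log10 p of 6.22. It had a further exonic peak of 170 bp at chr20:5002149-5002318, with a fold enrichment of 2.90. They lay 10907 and 8414 bp from the same end of Vars, and 3 more entries were intergenic with fold enrichments of 3.12, 6.78 and 4.51.

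Nars, the asparaginyl enzyme, had a 329-bp exonic peak with a fold enrichment of 3.07. Hars, the histidyl enzyme, had a 170-bp exonic peak at 2.90. Farsa, the α subunit of the phenylalanyl enzyme, had the weakest of the 7, a 170-bp exonic peak with a fold enrichment of 2.70 and a −log10 p of 3.67, at percentile 0.237 of the list, and an intronic peak at 4.15. The peak of Hars and the shorter peak of Vars carried the same fold enrichment (2.90) and the same −log10 p (5.15), a pair of values shared by 1450 clozapine peaks (7.46% of the list).

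No mitochondrial synthetase gene, 0 of 16, had a clozapine peak of the upstream, 5′ UTR, exonic or splicing class, beside 14.4% of all protein-coding genes. This rests on few genes and was not tested. By any class but intergenic 5 of 16 (31.2%) had peaks, near the 28.2% of all protein-coding genes, and all of them were intronic. These were Rars2, Nars2, Vars2 and Cars2 with 1 each, at fold enrichments of 4.80, 3.84, 3.63 and 3.62, and Fars2 with 2, at 2.79 and 3.85. Dars, Lars and Mars, the aspartyl, leucyl and methionyl enzymes of the multisynthetase complex, had intronic clozapine peaks at 3.91, 4.66 and 3.97.

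In the olanzapine library 8 of 32 entries (25.0%) were intergenic and 16 (50.0%) exonic, against 25.3% and 41.0% of the list. In the clozapine library 30 of 48 (62.5%) were intergenic and 7 (14.6%) exonic, against 52.2% and 21.0% of the list. An intergenic entry names the flanking genes however far they are. Fars2 had 7 clozapine entries, 5 of them intergenic and 117397 to 261379 bp from the gene. Tars2 had 4, at 8531 to 64059 bp, with fold enrichments between 4.08 and 5.33. Rars also had 4, at 6219 to 158445 bp and between 2.73 and 4.21.

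Lars had 2 intergenic olanzapine entries, 16900 and 122708 bp before its start, with fold enrichments of 3.71 and 4.06, against 2 in the clozapine library, at 68513 and 70821 bp, with 7.51 and 4.14. Iars, the isoleucyl enzyme, had 2 clozapine entries at 75719 and 56836 bp, with 2.87 and 3.85, and Vars2 had 1 at 3886 bp with 5.13. The strongest clozapine entry of the family lay between Hao2 and Wars2, 15167 bp before the start of Wars2, with a fold enrichment of 8.10 and a −log10 p of 17.5. Single intergenic entries of Cars, Ears2, Farsb and Lars2 had fold enrichments between 2.93 and 4.68. None of these entries lies in a synthetase gene, and they are given by the naming rule alone.

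The peaks of the 2 libraries lay at different positions in the genes. Gene ends could be located from the distances that intergenic entries give, and with the strand they gave a start for 4316 genes. Over all these genes 86.7% of 766 exonic olanzapine peaks lay within 1000 bp of the gene start (95% Wilson interval 84.1% to 88.9%), and 44.5% covered it. Of 1268 exonic clozapine peaks, 8.91% lay within 1000 bp (7.47% to 10.6%) and 1.81% covered it. Intronic peaks lay within 1000 bp of the start in 42.2% of 308 for olanzapine (36.8% to 47.8%) and in 0.857% of 1633 for clozapine (0.511% to 1.43%). These intervals cover the counting of peaks only. The median distance of exonic peaks was 23.5 bp for olanzapine and 20143.5 bp for clozapine.

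Few synthetase genes had both a located start and a peak of these classes. All 5 olanzapine peaks lay within 1000 bp of the start, the intronic one of Cars and the exonic ones of Sars, Tars, Tars2 and Wars2, and those of Sars and Tars covered it. None of 4 clozapine peaks in 3 genes did, and all 4 were intronic, so no exonic clozapine peak of the family could be placed relative to a start. The nearest of these, in an intron of Cars2, was 3894 bp into the gene, that of Lars was 25696 bp in, and the 2 of Fars2 were 209261 and 388557 bp in. The start of Aars was not used, because the strand in GRCr8 would put its own 5′ UTR peak far from the start.

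**Figure D3:**
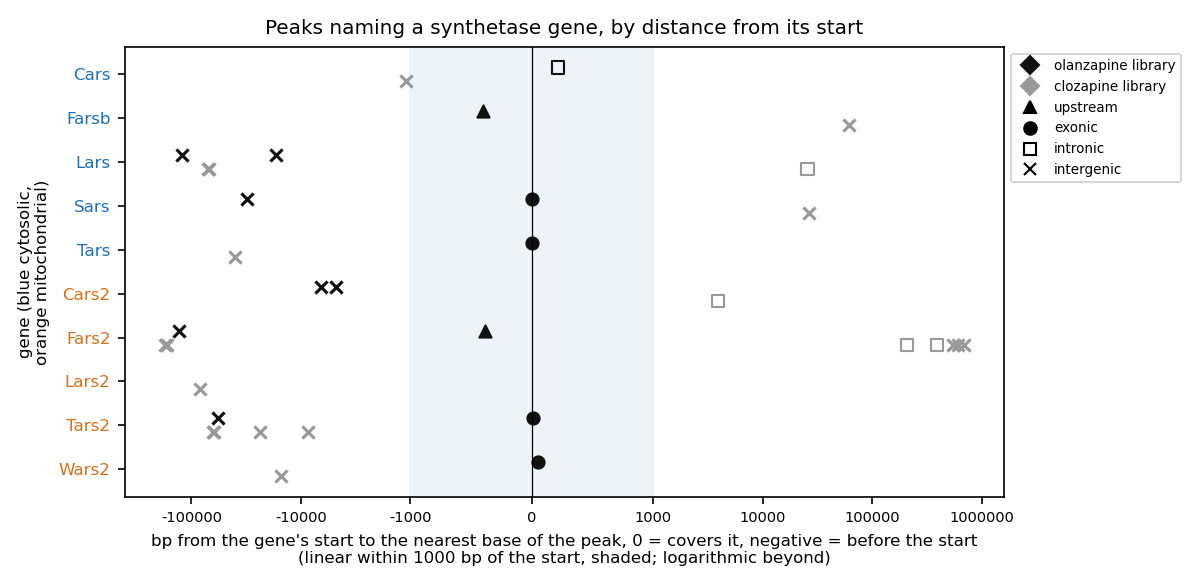
Distance in bp from the start of the gene to the nearest base of each peak, for the 10 synthetase genes with a located start; the axis is linear within 1000 bp of the start (shaded) and logarithmic beyond, and negative values lie before the start. Black symbols are olanzapine peaks and grey symbols clozapine peaks. All black circles (exonic) and the black square (intronic) stand within 1000 bp of the start, and no grey symbol does.

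None of the 32 olanzapine peaks of synthetase genes overlapped a clozapine peak by 1 bp or more, in a synthetase gene or elsewhere, and none lay within 1000 bp of one. Across the lists 2.34% of 7128 olanzapine peaks overlapped a clozapine peak, and 5.42% lay within 1000 bp of one. Of 19449 clozapine peaks, 0.864% overlapped an olanzapine peak. Both counts of 0 in 32 are near the olanzapine shares of the whole list. Of the 18 genes named in both lists, the smallest gap between peaks of the 2 libraries was 1315 bp, at Cars, and the largest 61453 bp, at Farsb, with a median of 20138 bp. At Cars the olanzapine peak lay inside the start and the clozapine peak 1102 bp before it. In the genes with a peak of any class but intergenic in both libraries, the gap was 4936 bp at Vars2, 10326 bp at Kars, 11760 bp at Mars, 13182 bp at Gars, 22704 bp at Rars2 and 30956 bp at Nars2. At Fars2, the other such gene, the nearest pair of peaks was intergenic in both libraries, 37671 bp apart. Aars2, Hars2, Iars2 and Mars2, all mitochondrial, were named in neither list. By any class, 69.4% of synthetase genes were named in each library, beside 35.9% of protein-coding genes for olanzapine and 52.5% for clozapine.

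In length and fold enrichment the peaks in synthetase genes followed the library they came from. The 20 olanzapine peaks had a median length of 626.5 bp (199 to 1495 bp) and a median fold enrichment of 4.45 (3.21 to 5.47), against 670 bp and 4.29 for all 4270 olanzapine peaks of these classes. The 7 clozapine peaks had a median length of 170 bp (170 to 1112 bp) and a median fold enrichment of 3.07 (2.70 to 3.78), against 232 bp and 3.41 for all 4261 clozapine peaks of these classes. In the olanzapine library cytosolic and mitochondrial genes had 9 peaks each, with median lengths of 636 and 617 bp and median fold enrichments of 4.12 and 4.47. The fold enrichments of the compartments overlapped, between 3.21 and 5.47 in cytosolic and between 4.12 and 5.34 in mitochondrial genes. Over all classes, 35 of 48 clozapine peaks of the family (72.9%) were at most 200 bp long, against 64.2% of the clozapine list, and 1 of 32 olanzapine peaks was (3.12%), against 5.32% of the olanzapine list. Of the 48, 20 had the shortest length in the list, 170 bp.

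**Figure D4:**
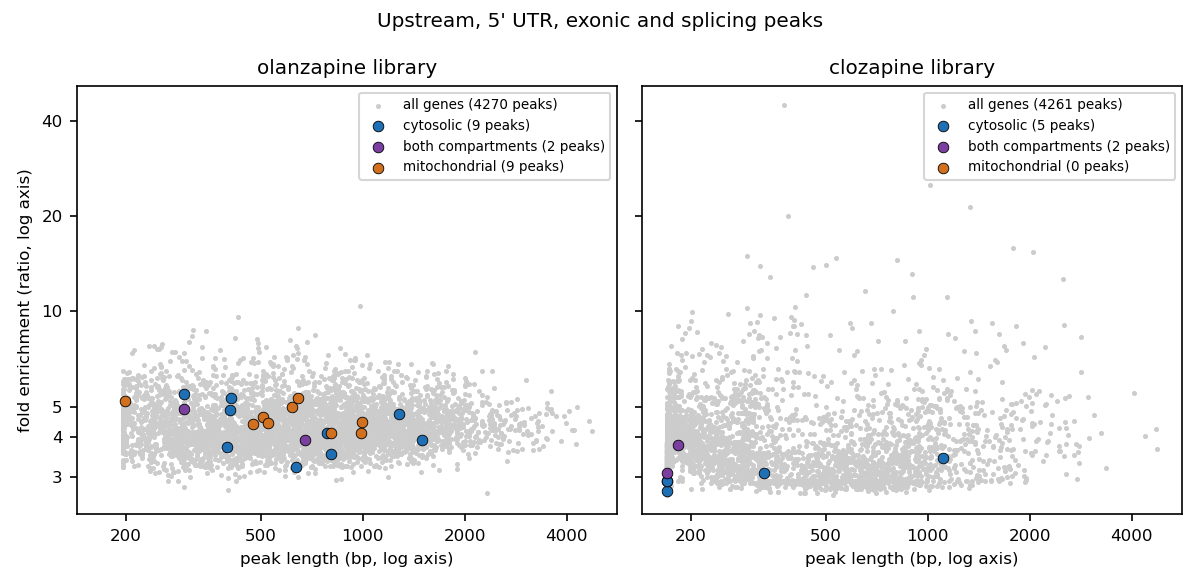
Length in bp and fold enrichment (a ratio) of upstream, 5′ UTR, exonic and splicing peaks, both on log axes, in the olanzapine library (left) and the clozapine library (right). Grey points are all such peaks and coloured points those in cytosolic (blue), both-compartment (purple) and mitochondrial (orange) synthetase genes. The 20 olanzapine points spread over the body of the grey cloud between 199 and 1495 bp, and 5 of the 7 clozapine points lie at or below 200 bp.

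A higher threshold left few synthetase genes in either library, while a minimum length left most of those of the olanzapine library. With a −log10 q of at least 5, 1 of 36 remained for olanzapine (Tars) beside 1.57% of protein-coding genes, and 0 for clozapine beside 1.97%. With a fold enrichment of at least 5, 4 remained for olanzapine (Qars, Tars, Tars2 and Wars2) beside 4.77%, and 0 for clozapine beside 1.72%. With peaks longer than 200 bp there were 18 for olanzapine beside 22.1%, and 2 for clozapine (Nars and Vars) beside 8.72%. The upstream and 5′ UTR classes alone gave 4 for olanzapine (Aars, Farsb, Fars2 and Kars) beside 7.19%, and 0 for clozapine beside 0.863%.

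Other genes of tRNA charging were followed in the same way, with peaks in the gene counted unless another count is named. All 3 genes for the accessory proteins of the multisynthetase complex had an olanzapine peak in the gene, Eef1e1, Aimp1 and Aimp2, at fold enrichments of 5.28, 4.38 and 3.88, and 0 of 3 had a clozapine peak. Of 6 genes for charging steps without a synthetase of their own, Pstk and Gatc had olanzapine peaks in the gene, at 4.29 and 3.61. Pstk phosphorylates seryl-tRNA on the route to selenocysteine, and Gatc is a subunit of the mitochondrial glutaminyl-tRNA amidotransferase. For clozapine 0 of 6 had a peak in the gene, and 1 of 6 had one of any class but intergenic. Of 6 genes for proofreading and peptidyl-tRNA release, Ptrh2, Aarsd1 and Prorsd1 had olanzapine peaks in the gene, at 5.49, 4.52 and 4.30. Here too 0 of 6 had a clozapine peak in the gene, and 1 of 6 had one of any class but intergenic. Genes that mature or export tRNA counted 8 of 20 for olanzapine, with Pop5 and Pop7 of ribonuclease P highest by −log10 p. For clozapine they counted 0 of 20, and 3 of 20 by any class but intergenic. In each of these lists the olanzapine library had the higher count, as it did among all protein-coding genes (22.7% against 14.4%). By any class but intergenic, all protein-coding genes stood at 26.8% for olanzapine and 28.2% for clozapine. The lists are small, and clozapine counts of 0 of 3 and 0 of 6 are near the share of all genes.

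Elongation factors, which use the charged tRNA, had the same count in each library, 6 of 9 (66.7%). All protein-coding genes stood at 22.7% for olanzapine and 14.4% for clozapine. Eef1a1, Eef1b2, Eef2 and Tufm had a peak in both. Eef1a1, which brings aminoacyl-tRNA to the ribosome, had a 5′ UTR olanzapine peak of 1540 bp at a fold enrichment of 4.41, against an exonic clozapine peak of 2222 bp at 7.71. The genes of the amino acid response counted 7 of 14 for olanzapine (Atf4, Atf5, Cebpg, Ddit3, Eif2ak4, Sesn2 and Trib3) and 1 of 14 for clozapine. These are 50.0% and 7.14%, beside the same 22.7% and 14.4%. The clozapine gene was Atf4, whose exonic peak there had a fold enrichment of 3.94. By any class but intergenic the amino acid response counted 7 of 14 (50.0%) for olanzapine and 4 of 14 (28.6%) for clozapine. All protein-coding genes then stood at 26.8% and 28.2%.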

How the data were processed

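Liver chromatin of female rats was immunoprecipitated for H3K4me2 and sequenced as 3 libraries. The peak lists of the olanzapine library and the clozapine library were analysed. The authors mapped reads to Rnor_6.0 with BWA, retaining those placed at a single position with no mismatch. Whether reads were single or paired is stated in conflicting ways. The peak caller, its control and the annotation version are not given in the sources used here. The authors deposited, per peak, a fold enrichment (a ratio), a −log10 p-value and a −log10 q-value, which describe and rank peaks of 1 list. Where values of both lists stand side by side they are given as values and not tested, since the lists may differ in scale. The smallest −log10 q was 1.00 in each list. The study gives read totals per library, and these were not used here. They are similar in clean reads, and far lower on the genome for clozapine than for olanzapine. The lists hold no read counts, so the number of reads under each peak is unknown. Deposited GO tables and the authors' enrichment p-values were not used.

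A gene was counted when the authors placed a peak of the upstream, 5′ UTR, exonic or splicing class in it. The background was 18539 protein-coding genes of the GRCr8 names table, of which 35 of the 36 members are part. Of 12100 gene names in the lists, 11840 (97.9%) matched. Gene ends came from the distances in intergenic entries, and the strand from upstream entries or GRCr8. These sources gave the same strand for 116 of 120 genes known from both. Coordinates of peaks are on Rnor_6.0 and those of promoters on GRCr8, and none were converted. The windows of 1 promoter are not reported here.

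The members, compartments and lists were chosen with earlier results of these data known. Full values were given for members with peaks in both libraries, for the 5 highest by −log10 p among peaks in the gene, for the longest and shortest, and for members with several peaks in a library. Other genes are examples of their list, at most 3 per library. Alternatives were a minimum of 5 for −log10 q or for fold enrichment, a minimum length above 200 bp, other classes and other overlap criteria. The scripts were tested on simulated data. The tools were pandas 2.3.3, numpy 2.4.6, scipy 1.17.1 and matplotlib 3.10.9 under Python 3.11.15.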

Additional observations from a re-analysis of the deposited data

How the results depend on the processing

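Counts of synthetase genes with a peak in the gene depended on the threshold and on the classes counted. With a −log10 q of at least 5 the olanzapine count became 1 of 36 instead of 19 (Tars, cytosolic, so 1 cytosolic and 0 mitochondrial), and the clozapine count 0 instead of 6 (0 cytosolic). With a fold enrichment of at least 5 the olanzapine count became 4 (2 cytosolic, 2 mitochondrial) and the clozapine count 0 (0 cytosolic). With the upstream and 5′ UTR classes alone the olanzapine count became 4 (2 cytosolic, 1 mitochondrial) and the clozapine count 0 (0 cytosolic). With peaks longer than 200 bp the clozapine count became 2 (2 cytosolic) and the olanzapine count was 18. With any class but intergenic the clozapine count became 14 (7 cytosolic and 5 mitochondrial, where the main count had 0 mitochondrial). The clozapine median length was 720.5 bp in peaks longer than 200 bp, from 2 peaks.

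Of 36 alternatives, 16 stayed within 1.5 times the count or within the interval of the median, and 20 did not. The overlap count was 0 under each criterion. Of all olanzapine peaks, 2.34% met the 1 bp criterion, 1.85% that of 50% of the shorter peak and 5.42% that of 1000 bp. No paired analysis was possible because each group is 1 library. Without replicates or reads per peak, neither sampling error nor detection limits of single peaks were computed. The libraries differ in the reads placed on the genome, and the lists in length and peak width.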

Other observations

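Genes that work beside the synthetases in the mitochondrion and the cytoplasm differed in their counts. Of 73 genes for mitochondrial ribosomal proteins, 36 (49.3%) had an olanzapine peak in the gene and 9 (12.3%) a clozapine peak, and the highest by −log10 p were Mrpl30, at a fold enrichment of 7.29, in the olanzapine library and Mrps24, at 4.60, in the clozapine library. Of 45 translation initiation factor genes, 21 (46.7%) had an olanzapine peak and 25 (55.6%) a clozapine peak, and 15 had one in both, Eif5a among them at 5.48 for olanzapine and 6.02 for clozapine. Initiation factors were thus counted more often for clozapine. Synthetases, mitochondrial ribosomal proteins and protein-coding genes at large (22.7% against 14.4%) were counted more often for olanzapine. By any class but intergenic, mitochondrial ribosomal protein genes stood at 57.5% for olanzapine and 24.7% for clozapine, and initiation factor genes at 53.3% and 71.1%. All protein-coding genes then stood at 26.8% and 28.2%. These differences between lists were not tested.

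The authors' KEGG table counted 22 of 69 genes of aminoacyl-tRNA biosynthesis as input genes for olanzapine and 15 of 69 for clozapine. For olanzapine these were 21 synthetase genes and Pstk, and for clozapine 14 synthetase genes and Sepsecs, which completes selenocysteinyl-tRNA. The synthetase genes were those with a peak of any class but intergenic, intronic peaks included. Ears2 and Rars2 for olanzapine, whose entries name a neighbour as well, were the exceptions. By any class but intergenic 26.8% of all protein-coding genes had a peak for olanzapine and 28.2% for clozapine. Whether 22 and 15 of 69 differ from these shares was not tested here. Of the input synthetase genes, 17 of 21 for olanzapine and 6 of 14 for clozapine had a peak of the upstream, 5′ UTR, exonic or splicing class.

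Over all rat genes with a promoter sequence, the median number of CpG dinucleotides was 23.0 where the gene had an olanzapine peak and 12.0 where it had none, against 22.0 and 15.0 for clozapine peaks. Among synthetase genes the medians were 20.0 and 19.0 for olanzapine, and 20.0 and 19.5 for clozapine. The part of promoter CpG content in the counts was not tested.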
